A study of Mus musculus with 6 samples.

Results

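The plasminogen activators, the urokinase receptor and a set of serpins were followed as 9 genes, chosen by symbol from the 47729 genes of the deposited table. They are the activators Plau and Plat, the receptor Plaur and the serpins Serpine2, Serpinb2, Serpinb6a, Serpinb9, Serpinf1 and Serpinh1. Each symbol matched 1 row. RNA-seq was run on total RNA of 2 cell lines, 4T1 and 4TO7, each with 3 libraries; both come from a spontaneous tumour of BALB/c mice, known to be of the mammary gland, and both were grown untreated in DMEM with 10% FBS. As background, 4T1 cells spread from the mammary gland and grow at distant sites, while 4TO7 cells spread but seldom form visible metastases. Each group is a single cell line, and the labels do not say that the triplicate cultures were set up separately, so p-values reflect how far these libraries differ, which may be technical variation.

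As background, the activators urokinase (Plau) and tissue-type plasminogen activator (Plat) are secreted serine proteases that cut plasminogen into plasmin, a protease that dissolves fibrin and degrades matrix. The urokinase receptor (Plaur) holds urokinase at the cell surface and so places plasmin formation there. Serpins are a fold family in which most members trap a target protease by offering a reactive loop, while a few, such as Serpinf1 and Serpinh1, have lost that activity and do other work. In breast carcinoma, urokinase is known as a marker of invasion.

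Depth was 33605566 to 39072639 reads per library. Libraries of one line correlated across genes at r = 0.978 to 0.993 on log2 values, against 0.809 to 0.848 between lines, and replicates of a line differed by more than counting noise. 4TO7 replicate 2 stood apart from the other 4TO7 libraries on the second principal component, which held 5.27% of the variance, so results that rest on it are given with and without it. Summed epithelial markers ran from 184479 to 206994 normalised counts in 4T1 and from 25834 to 42470 in 4TO7, with all 6 of 6 genes higher in 4T1. Summed fibroblast markers ran from 583 to 1362 in 4T1 and from 1721 to 7521 in 4TO7, most of it Pdgfra, with Lum and Thy1 at 0 reads in every library and 2 of 6 genes, both higher in 4TO7, past the filter. Summed leukocyte markers ran from 251 to 470 in 4T1 and from 93.6 to 165 in 4TO7, most of it Cd68, which with Csf1r was called higher in 4T1, while Adgre1 and Cd3e had 0 reads. Summed endothelial markers stayed between 28.9 and 111. Their part in the results below was not tested.

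The comparison asks which of these transcripts differ between the lines. Plau, Serpinb2, Serpinb6a and Serpinb9 were higher in 4T1, and Serpinf1 was higher in 4TO7. Plat, Plaur, Serpine2 and Serpinh1 did not pass the test. Levels are normalised read counts, fold changes are 4T1 minus 4TO7 on the log2(value + 1) scale with their standard error (SE), and adjusted p-values are from limma with Benjamini-Hochberg adjustment over 14276 genes and a threshold of 0.05. By that rule 49% of all tested genes differed between the lines, 25.1% higher in 4T1 and 23.9% higher in 4TO7, so 5 of 9 is close to the share among all genes. All 9 genes passed the low-value filter, 10 or more normalised counts in 3 or more of 6 libraries. Serpinb2 did so through 4T1 alone and Serpinf1 through all 3 4TO7 libraries and 1 of 4T1, so these 2 genes were tested because of the line in which they were high. Values of the lines did not overlap in 6 of the 9 genes, 4 with 4T1 above and 2 with 4TO7 above, against 29.8% and 28.7% of all tested genes, 58.4% together. Because these are bulk samples, fewer cells with a transcript and less of it per cell cannot be told apart.

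**Figure D1:**
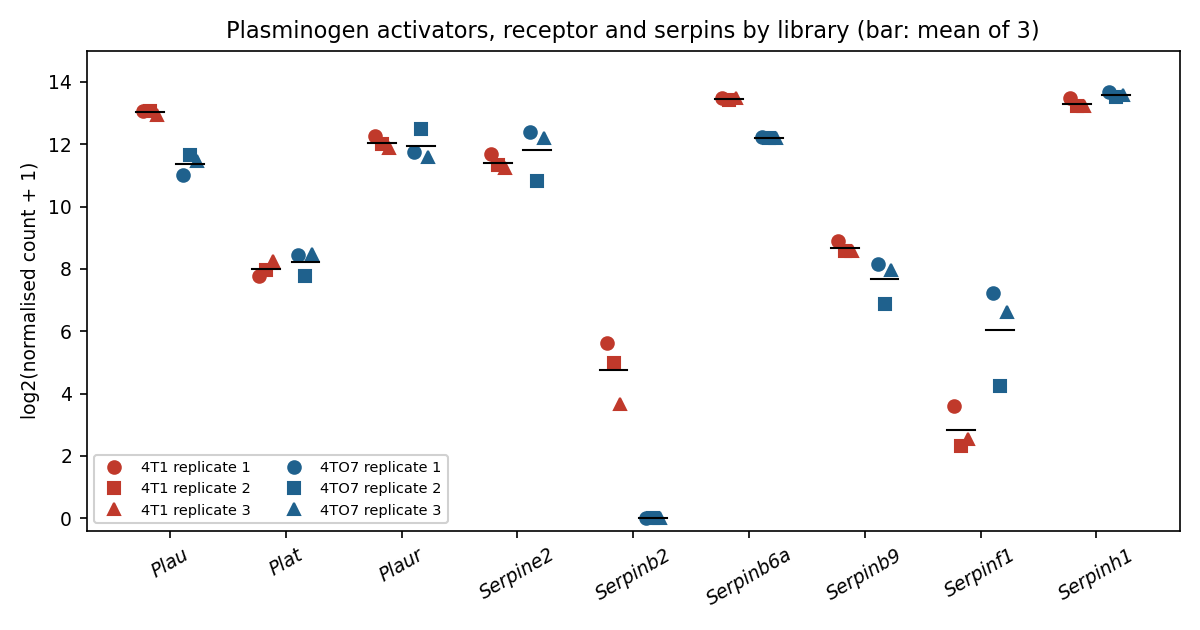
Normalised counts of the 9 genes, as log2(value + 1) on the vertical axis, with 1 symbol per library (circle, square and triangle for replicates 1, 2 and 3), 4T1 in red, 4TO7 in blue and a bar at the mean of 3. Serpinb2 lies at 0 in the 3 4TO7 libraries, and the blue square of 4TO7 replicate 2 lies away from the other 4TO7 libraries for Plaur, Serpine2, Serpinb9 and Serpinf1.

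The sequences before the transcription starts of Serpinb2, Serpinb6a and Plaur are shown because these genes follow 3 patterns: read in 4T1 alone, abundant in both lines but higher in 4T1, and abundant in both lines with no call. Each is the 250 bases before the start, 5′ to 3′ on the gene's strand, from RefSeq on GRCm38.p6, with motif matches in capitals. Motifs were searched on both strands. The letters of the basal promoter box were TATAAA, those of the site for AP-1, a stress and growth factor response element, were TGANTCA, and those of the GC-rich box bound by Sp1 were GGGCGG. The heat shock element was searched as GAANNTTC, the nuclear factor Y site as CCAAT, and a loose kappaB-like pattern, wider than the usual consensus, as GGGA and CC with any 4 bases between them. Where matches run into each other, the capitals join them. RefSeq starts were found for 7 of the 9 genes, and Plau and Plat were the ones without. Serpinb2 and Serpinb6a have 2 RefSeq starts each, and the window shown is the one free of annotated exons.
Serpinb2, chr1:107511173-107511422, plus strand: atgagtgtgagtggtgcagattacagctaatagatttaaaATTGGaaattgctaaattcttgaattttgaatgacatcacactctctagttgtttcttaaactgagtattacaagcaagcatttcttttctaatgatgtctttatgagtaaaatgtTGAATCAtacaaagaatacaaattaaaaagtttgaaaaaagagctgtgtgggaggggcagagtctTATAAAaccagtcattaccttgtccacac
Serpinb6a, chr13:34002795-34003044, minus strand: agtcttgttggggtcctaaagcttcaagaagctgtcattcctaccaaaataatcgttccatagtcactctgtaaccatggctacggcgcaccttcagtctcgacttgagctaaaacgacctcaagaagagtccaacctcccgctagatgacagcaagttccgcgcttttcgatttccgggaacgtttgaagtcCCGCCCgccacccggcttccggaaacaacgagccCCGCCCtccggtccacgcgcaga
Plaur, chr7:24462233-24462482, plus strand: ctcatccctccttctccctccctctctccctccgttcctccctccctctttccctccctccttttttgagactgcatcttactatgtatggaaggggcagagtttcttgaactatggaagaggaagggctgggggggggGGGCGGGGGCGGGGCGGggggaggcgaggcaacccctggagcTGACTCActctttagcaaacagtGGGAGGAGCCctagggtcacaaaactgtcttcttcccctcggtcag

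The Serpinb2 window shown held TATAAA from 29 to 24 bases before the start, TGANTCA from 94 to 88 bases before it and CCAAT in reverse from 210 to 206. The Serpinb6a window shown held GGGCGG in reverse at 57 to 52 and at 23 to 18 bases before its start and no TATAAA, while the window of the other Serpinb6a start held CCAAT from 79 to 75 and no GGGCGG. Plaur held GGGCGG at 3 places between 111 and 95 bases before the start, of which 2 share a base, with TGANTCA from 69 to 63 and the loose kappaB-like pattern from 46 to 37. Among 32851 RefSeq promoter windows of the same length, 12.4% held TATAAA, 6.75% TGANTCA, 32.7% GGGCGG, 33.9% CCAAT, 17.6% the loose kappaB-like pattern and 6.69% GAANNTTC. The Serpinb2 window was 32.4% G and C, against 54.4% for Serpinb6a and 59.6% for Plaur. These matches describe letters in the windows and say nothing of binding.

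Among the activators, urokinase differed between the lines while the tissue-type activator did not pass. Plau (ENSMUSG00000021822, GRCm38 chromosome 14, 20836660 to 20843385, plus strand) had 8648, 8624 and 7796 normalised counts in 4T1 and 2058, 3229 and 2847 in 4TO7, each given here and below in the order of replicates 1, 2 and 3. Every 4T1 library lay above every 4TO7 library. The mean was 8356 ± 485 (SD, n = 3) in 4T1 and 2711 ± 597 in 4TO7, so 4T1 was 3.08-fold higher (log2 fold change 1.65 ± 0.18 SE, adjusted p = 0.000146). The call held in all 16 alternatives, with log2 fold changes from 1.46 to 1.79.

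Plat (ENSMUSG00000031538, chromosome 8, 22757727 to 22782844, plus strand) had 218, 247 and 303 normalised counts in 4T1 and 346, 218 and 352 in 4TO7. The lines overlapped, with 4TO7 replicate 2 level with the lowest 4T1 library. The log2 fold change was -0.23 with a 95% interval of -0.81 to 0.34 (adjusted p = 0.469), and without 4TO7 replicate 2 it was -0.46 (adjusted p = 0.0890). Per kilobase of annotated exon, Plau stood at 3530 ± 205 normalised counts in 4T1 and 1145 ± 252 in 4TO7, and Plat at 41.0 ± 6.94 and 49.0 ± 12.2, so urokinase was the more abundant activator transcript in both lines.

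The urokinase receptor was abundant in both lines. Plaur (ENSMUSG00000046223, chromosome 7, 24462484 to 24475968, plus strand) had 4898, 4146 and 3794 normalised counts in 4T1 and 3470, 5685 and 3102 in 4TO7. 4TO7 replicate 2 was the highest of the 6 libraries, and the other 4TO7 libraries were the lowest. The log2 fold change was 0.11 with a 95% interval of -0.42 to 0.64 (adjusted p = 0.716), and without 4TO7 replicate 2 it was 0.37 (adjusted p = 0.0626). Its sign turned, at -0.018, when libraries were scaled to equal totals, and at -0.062 without 4TO7 replicate 3.

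Of the secreted serpin inhibitors, Serpine2, known as protease nexin and an inhibitor of thrombin, urokinase and other serine proteases, had 1 4TO7 library far from the others. Serpine2 (ENSMUSG00000026249, chromosome 1, 79794197 to 79861180, minus strand) had 3260, 2555 and 2396 normalised counts in 4T1 and 5359, 1825 and 4687 in 4TO7. 4TO7 replicate 2 was the lowest of all 6 libraries, while the other 4TO7 libraries were the highest. With all libraries the log2 fold change was -0.40, with a 95% interval of -1.25 to 0.45 (adjusted p = 0.400). Without 4TO7 replicate 2 it was -0.89 (adjusted p = 0.00195), a ratio of 1.84 toward 4TO7, so 1 library decides whether Serpine2 is called.

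Serpinb2, the plasminogen activator inhibitor of clade B, which blocks urokinase in vitro and is mostly retained inside cells, was read in 4T1 libraries and in no 4TO7 library. Serpinb2 (ENSMUSG00000062345, chromosome 1, 107511423 to 107535478, plus strand) had 48.4, 30.9 and 11.6 normalised counts in 4T1 and 0 in each 4TO7 library. Its 91 reads in 4T1 against 0 make it at least 30.6-fold higher, against a floor of 3 reads over the 3 4TO7 libraries, which covers counting error only. The call (adjusted p = 0.000139) held in each of the 15 alternatives that tested the gene, and a filter of 100 removed it. Because Serpinb2 entered the test through 4T1 alone, these calls are no independent support. The fitted log2 value of 4.76 moved from 1.90 to 7.92 over those alternatives and is no measure of size. In the annotation its exons overlap Serpinb10 on the same strand, which had 0 reads, and 10.4% of its 50-base words occur in another gene.

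**Figure D2:**
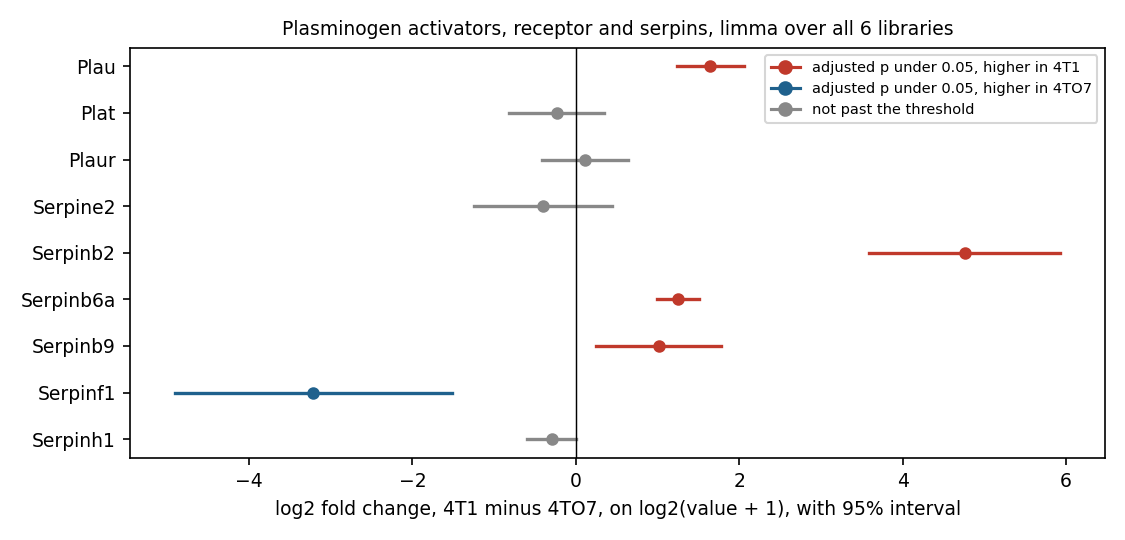
Log2 fold change of each gene, 4T1 minus 4TO7, on the horizontal axis with its 95% interval from limma over 6 libraries. Red marks genes called higher in 4T1, blue the gene called higher in 4TO7 and grey those not past the threshold, whose intervals include 0.

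The intracellular serpins Serpinb6a and Serpinb9 were both higher in 4T1 but differed in how firmly. Serpinb6a, an inhibitor of trypsin-like proteases and cathepsin G (ENSMUSG00000060147, chromosome 13, 33917918 to 34002794, minus strand), had 11470, 10863 and 11463 normalised counts in 4T1 and 4797, 4673 and 4681 in 4TO7. The libraries of a line lay close together and the lines far apart. The ratio was 2.39 and the log2 fold change 1.26 ± 0.11 (SE; adjusted p = 4.65e-05), called in all 16 alternatives, at 1.13 to 1.28. Its exons overlap those of Nqo2, Ripk1 and an antisense transcript on the opposite strand, and 25.1% of its 50-base words occur in another gene, most in Nqo2. Nqo2 had 1123 normalised counts in 4T1 and 641 in 4TO7, far fewer than Serpinb6a, but the strand setting of the counting was not given in the sources used here. Nqo2 was itself called higher in 4T1 (adjusted p from limma = 0.00491). Ripk1 averaged 939 in 4T1 and 1581 in 4TO7, and the antisense transcript 114 and 51.5. Their share in the Serpinb6a counts was not tested.

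Serpinb9, the inhibitor of granzyme B that shields cells from cytotoxic granules (ENSMUSG00000045827, chromosome 13, 33003250 to 33017957, plus strand), had 470, 380 and 378 normalised counts in 4T1 and 283, 116 and 247 in 4TO7. The lines did not overlap, and 4TO7 replicate 2 was the lowest library. The ratio was 1.90 and the log2 fold change 1.01 ± 0.33 (SE; adjusted p = 0.0339). The call was lost without 4T1 replicate 1 (0.119), 4T1 replicate 2 (0.0778) or 4T1 replicate 3 (0.0673) and with equal totals per sample (0.0591), where these values are adjusted p from limma. Without 4TO7 replicate 2 the ratio was 1.54 and the gene stayed called.

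Of the serpins without inhibitory activity, 1 was called, toward 4TO7. Serpinf1, or pigment epithelium-derived factor, a secreted protein known to restrain vessel growth (ENSMUSG00000000753, chromosome 11, 75409769 to 75422701, minus strand), had 11.1, 3.99 and 4.83 normalised counts in 4T1 and 149.7, 17.8 and 97.5 in 4TO7. The lines did not overlap, but 4TO7 replicate 2 lay nearest to 4T1. The ratio of means was 13.3 toward 4TO7 and the log2 fold change -3.21 ± 0.74 (SE; adjusted p = 0.00766). The level in 4T1 rests on 20 reads in all. The ratio was 20.1 without 4T1 replicate 1, 8.69 without 4TO7 replicate 1 and 18.6 without 4TO7 replicate 2, and the gene stayed called when any 1 library was left out. Those fits kept the same genes, and Serpinf1 was among them through all 3 4TO7 libraries and 1 of 4T1. They are therefore no independent support.

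Serpinh1, the collagen chaperone of the endoplasmic reticulum (ENSMUSG00000070436, chromosome 7, 99345376 to 99353239, minus strand), had 11421, 9508 and 9490 normalised counts in 4T1 and 13216, 11761 and 12197 in 4TO7. The lines did not overlap, and the gap between 4T1 replicate 1 and 4TO7 replicate 2 was small. The log2 fold change was -0.29 with a 95% interval of -0.59 to 0.01 (adjusted p = 0.0953). It was called toward 4TO7 without 4T1 replicate 1 (-0.38, adjusted p = 0.0319), with equal totals (-0.42, 0.0323) and with quantile normalisation (-0.44, 0.0304).

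Levels were ordered per kilobase of annotated exon, mean of 3. In 4T1 the order of normalised counts per kilobase was Serpinh1 at 4151 ± 454, Plau at 3530 ± 205, Serpinb6a at 2083 ± 64.4, Plaur at 1635 ± 216, Serpine2 at 330 ± 55.5, Serpinb9 at 117 ± 15.1, Plat at 41.0 ± 6.94, Serpinb2 at 12.9 ± 7.85 and Serpinf1 at 2.81 ± 1.65. No neighbours in this order overlapped over the 3 libraries. In 4TO7 it began with Serpinh1 at 5072 ± 306, Plaur at 1561 ± 534, Plau at 1145 ± 252, Serpinb6a at 872 ± 12.8 and Serpine2 at 477 ± 226. It ended with Serpinb9 at 61.7 ± 25.1, Plat at 49.0 ± 12.2, Serpinf1 at 37.5 ± 28.2 and Serpinb2 at 0. In 4TO7 Plaur overlapped Plau, Plau overlapped Serpinb6a, and Serpinb9, Plat and Serpinf1 overlapped one another, so those orders lie within the spread. Lengths are from GENCODE M21, and the annotation that was counted may differ. Each length joins all annotated exons of a gene, 2.367 kb for Plau and 5.409 kb for Serpinb6a, so the order depends on that choice too. By counts alone Serpinb6a was the highest in 4T1, at 11266 against 10140 for Serpinh1 and 8356 for Plau.

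In 4TO7 replicate 2 the genes moved apart rather than together. Against the mean of the other 4TO7 libraries on the log2 scale it was lower by 2.70 for Serpinf1, by 1.46 for Serpine2, by 1.18 for Serpinb9 and by 0.68 for Plat. It was higher by 0.79 for Plaur and 0.42 for Plau, and Serpinb6a and Serpinh1 differed by -0.02 and -0.11. The median over all tested genes was -0.01.

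Genes with the profile most like each activator or the receptor were found by the root mean square distance of mean-centred log2 values over the 6 libraries. For Plau they were Arhgap10, Ddx28 and Ppp1r13b, at 0.09 to 0.10. For Plaur they were Itpa-ps1, Itpa and Tmem50b, at 0.06 each, where Itpa-ps1 is named as a pseudogene of Itpa and may share its reads. For Plat they were Stat5a at 0.03, Zbtb4 at 0.05 and Cryz at 0.06.

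The other genes of the plasminogen system divided between the lines. Of 23 listed partners 13 were tested. In 4T1 5 were higher, among them Vldlr, St14, Anxa2 and Eno1, and in 4TO7 5 (Mrc2, Pdgfc, Lrpap1, Igf2r and F12). The shares among all tested genes were 25.1% and 23.9%. The median log2 fold change of the 13 was -0.06, against 0.03 over all tested genes and 0.11 over the 9 genes. Plasminogen itself, Plg, had 1 read in 4T1 and 5 reads in 4TO7, and the plasmin inhibitor Serpinf2 had 3 and 2 reads. Vtn, the matrix ligand of the urokinase receptor, had 0 reads in every library. In the body plasminogen is made mainly by the liver.

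Among the partners described here, Vldlr and St14 differed most toward 4T1. St14, or matriptase, a membrane protease of epithelia that can activate pro-urokinase, had 9253, 8902 and 10589 normalised counts in 4T1 against 78.6, 68.1 and 114 in 4TO7, 110.1-fold higher. Vldlr, a receptor that can clear protease and inhibitor complexes, had 132, 93.7 and 265 in 4T1 libraries and none in those of 4TO7, at least 165-fold higher.

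Mrc2, a collagen receptor known to associate with the urokinase receptor, had 8.07, 5.98 and 10.6 normalised counts in 4T1 and 1324, 514 and 1217 in 4TO7, 123.8-fold higher there (log2 fold change -6.70 ± 0.40 SE, adjusted p = 4.16e-06). Mrc2 passed the low-value filter through the 3 4TO7 libraries and 1 of 4T1, and Vldlr through 4T1 alone. Lrpap1, the chaperone of the clearance receptor Lrp1, was 2.64-fold and Igf2r, which binds the urokinase receptor, 2.32-fold higher in 4TO7, both named after their values were seen. Lrp1 had 12034, 13556 and 14992 in 4T1 and 18715, 15207 and 27613 in 4TO7, which missed the threshold (adjusted p = 0.0601). It was called toward 4TO7 without 4TO7 replicate 2 (adjusted p = 0.00746), with edgeR (0.0322), with DESeq2 (0.0257), with equal totals (0.0261), with quantile normalisation (0.0224), with no low-value filter (0.0438) and with the replicate block (0.0194). Pdgfc, a growth factor that Plat and plasmin can activate, was 3.93-fold higher in 4TO7 and was also named after its value was seen. It had 251, 252 and 257 normalised counts in 4T1 and 1379, 389 and 1220 in 4TO7. The ratio was 5.13 without 4TO7 replicate 2 and 3.18 without 4TO7 replicate 1.

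Anxa2, the annexin that binds Plat and plasminogen, had 37423 ± 2690 normalised counts in 4T1 and 27466 ± 2955 in 4TO7 (n = 3 each; ratio 1.36, adjusted p from limma = 0.0209). Its call was lost with equal totals (0.0689), with quantile normalisation (0.131), without 4T1 replicate 3 (0.0827), without 4TO7 replicate 1 (0.0940) and without 4TO7 replicate 3 (0.0730). Eno1, an enolase that also binds plasminogen and has near-identical copies, was 1.32-fold higher (adjusted p = 0.0351); it was named after its value was seen and was no longer called in 9 of the 16 alternatives. S100a10, the partner of Anxa2, averaged 17087 ± 988 and 17782 ± 1633 and fell short of the threshold (adjusted p = 0.738). The plasminogen receptor Plgrkt averaged 864 ± 59.9 and 680 ± 126 and also missed the threshold (adjusted p = 0.131), though every 4T1 library lay above every 4TO7 library.

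**Figure D3:**
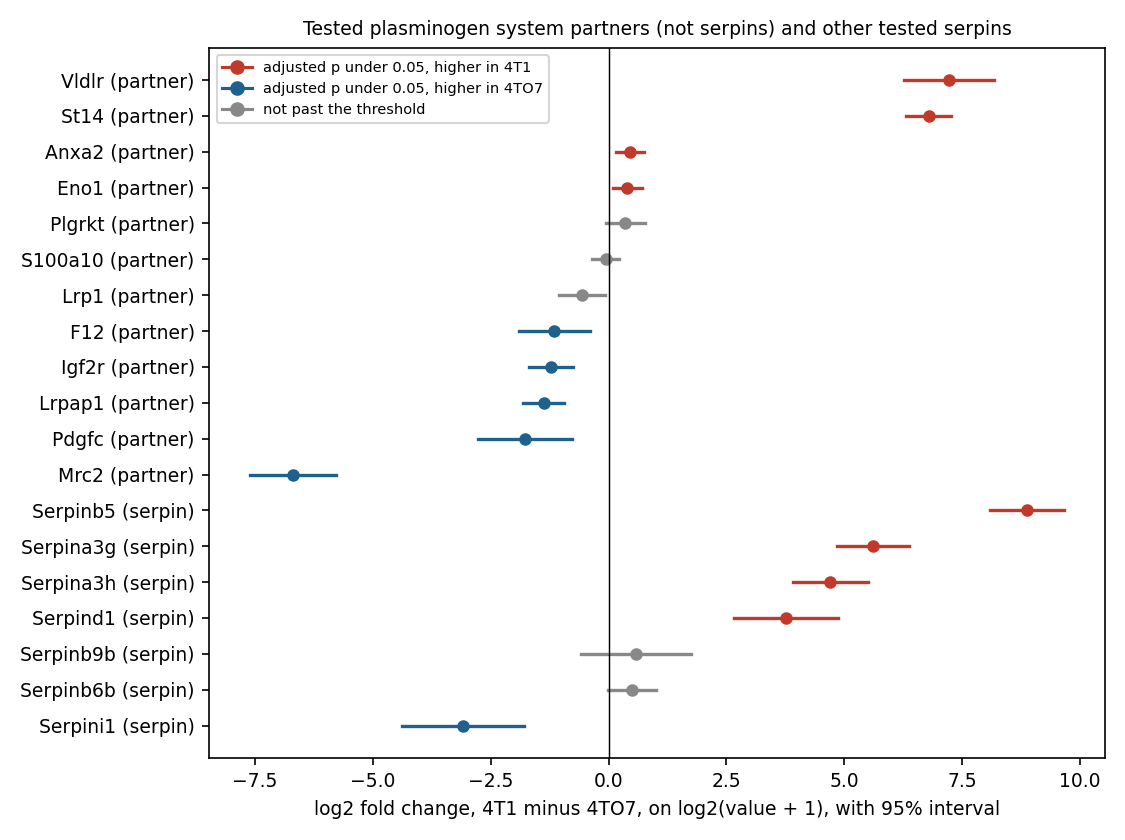
Log2 fold change, 4T1 minus 4TO7, on the horizontal axis with its 95% interval from limma, for tested partners of the plasminogen system that are not serpins and for tested serpins that are not among the partners. Red marks genes called higher in 4T1, blue genes called higher in 4TO7 and grey genes not past the threshold. St14 and Vldlr lie farthest toward 4T1 among these partners and Mrc2 farthest toward 4TO7.

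Beyond the 6 serpins above, the table held 63 rows with a Serpin symbol, of which 30 had 0 reads in every library and 8 were tested. Toward 4T1 5 of the 8 were called and toward 4TO7 1, beside 25.1% and 23.9% of all tested genes. Low counts in 1 line helped to choose this set. Serpinb5, Serpina3g, Serpina3h and Serpind1, all called toward 4T1, passed the low-value filter through 4T1 alone. Serpinb5, or maspin, an epithelial serpin of the mammary gland, had 311, 500.2 and 672 normalised counts in 4T1 and none in 4TO7, at least 499-fold higher. Serpina3g and Serpina3h had 49.1 ± 11.7 and 25.8 ± 7.05 in 4T1 (n = 3) and none in 4TO7, at least 49.6-fold and 26.0-fold higher, and belong to a family of near-identical copies that may share reads. Serpina3h is annotated as a transcribed unprocessed pseudogene. Serpini1, or neuroserpin, an inhibitor of Plat, was the 1 of these 8 that was higher in 4TO7, with 37.3, 8.97 and 30.9 in 4T1 and 254, 106 and 273 in 4TO7 (adjusted p = 0.00257); it was named after its value was seen.

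By position, the clade B genes lie in 2 clusters. On chromosome 1, from 106861173 to 107610484, 11 Serpinb genes that GENCODE M21 gives as protein-coding were in the table and 8 of them had 0 reads in all libraries. The rows named Serpinb10, which had 0 reads too, are not in that count. The 3 of these 11 with reads were Serpinb5 at one end, Serpinb2, and Serpinb8 at the other end, which had 39 reads in 4T1 and 6 in 4TO7 and was too low to test. On chromosome 13, from 32842092 to 34002794, 15 such Serpinb genes were in the table and 4 were tested. Serpinb6a and Serpinb9 were called, while their close relatives Serpinb6b, at 349 ± 16.0 and 251 ± 61.6, and Serpinb9b, at 12.8 ± 5.14 and 8.79 ± 5.51, missed the threshold (adjusted p = 0.0946 and 0.374). Serpinb9 shared 0.378% of its 50-base words with other genes, most with Serpinb9b.

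Known targets and receptors of the serpins were measured beside them. The list also held the thrombin receptor F2r and the related receptor F2rl1, which are not receptors of these serpins. Of 10 listed genes 7 were tested. Of those, 4 were higher in 4T1, F2r and F2rl1 among them, and 0 higher in 4TO7, beside 25.1% and 23.9% of all tested genes. At an unadjusted p under 0.05 the count toward 4TO7 was also 0 with limma, and edgeR and DESeq2 called 0. Values of the lines did not overlap in 5 with 4T1 above and in 1, Lrp6, with 4TO7 above. Lrp6 averaged 4241 in 4T1 and 5816 in 4TO7 and missed the threshold (adjusted p from limma = 0.129). It was named after its value was seen. Gzmb and Ctsg, targets of Serpinb9 and Serpinb6a, had 0 reads, and thrombin, F2, had 1 read per line. The thrombin receptor F2r had 7241, 9139 and 8873 normalised counts in 4T1 and 2275, 2576 and 2735 in 4TO7, 3.33-fold higher (adjusted p = 3.07e-05). The related receptor F2rl1 had 4368, 5653 and 3194 in 4T1 and 127, 302 and 229 in 4TO7, 20.1-fold higher (adjusted p = 1.72e-05). Sdc1, a heparan sulfate proteoglycan, and Rpsa, a ribosomal protein that also binds laminin and Serpinf1 and has many processed copies, were 2.31-fold and 1.66-fold higher in 4T1. Pnpla2, a lipase described as a Serpinf1 receptor, averaged 1809 ± 164 and 1826 ± 83.5 (adjusted p = 0.929).

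Clients and co-workers of Serpinh1 were called in both directions. Of 18 collagen synthesis genes 13 were tested. Of those, 4 were higher in 4T1 and 5 in 4TO7, beside 25.1% and 23.9% of all tested genes. Without 4T1 replicate 1 these counts were 2 and 6. The median log2 fold change of the 13 was -0.43. The chains Col5a1 and Col4a1 were 6.30-fold and 2.16-fold higher in 4T1, whereas Col1a1 had 31 and 13 reads, Col1a2 3 and 0 reads and Col3a1 0 reads. Col4a1 had 5568, 12686 and 12190 normalised counts in 4TO7. It was 1.76-fold higher in 4T1 without 4TO7 replicate 1 and 2.47-fold without 4TO7 replicate 2. The modifying enzymes Plod1, a lysyl hydroxylase, and P3h1, a prolyl hydroxylase, were 5.05-fold and 3.42-fold higher in 4TO7 (adjusted p = 7.39e-06 and 6.88e-05). Another prolyl hydroxylase, P4ha2, was 1.80-fold higher in 4T1 (adjusted p = 0.0224), a call lost without 4T1 replicate 1 (0.0555), 4T1 replicate 3 (0.0794) or 4TO7 replicate 1 (0.0658). It was named after its value was seen, and 4 of the 13, other modifying enzymes among them, did not pass.

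**Figure D4:**
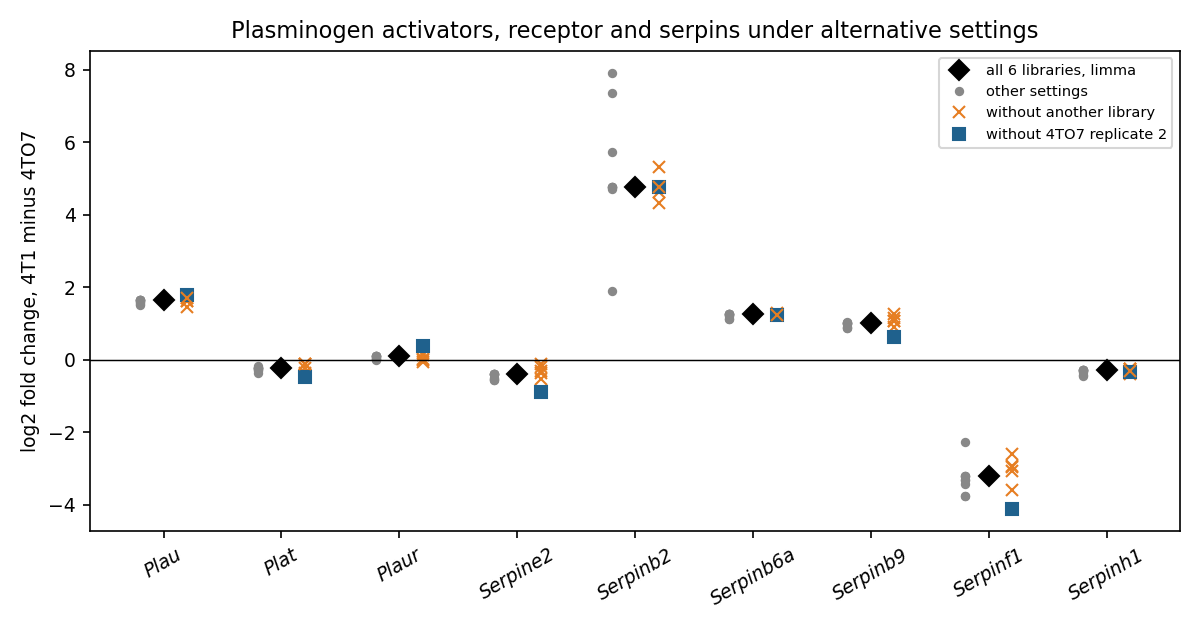
Log2 fold change of each gene, 4T1 minus 4TO7, on the vertical axis under limma with 6 libraries (black diamond), without 4TO7 replicate 2 (blue square), without each other library (orange cross) and under other settings (grey point). Plau and Serpinb6a keep within 1.46 to 1.79 and 1.13 to 1.28, while Serpine2 ranges from -0.89 to -0.11 and Serpinb2 from 1.90 to 7.92.

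In the authors' deposited table, whose fold changes are 4TO7 over 4T1, the log2 fold changes were -1.62 for Plau, -1.26 for Serpinb6a, -0.92 for Serpinb9, -7.37 for Serpinb2 and 3.74 for Serpinf1. The adjusted p-values in the authors' deposited table were 9.25e-14, 6.39e-21, 0.0136, 6.99e-07 and 2.06e-06 in that order. For the remaining genes the authors' deposited table gives adjusted p-values of 0.141 for Serpinh1, 0.243 for Serpine2, 0.492 for Plat and 0.880 for Plaur.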

How the data were processed

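Deposited values of 3 RNA-seq libraries per line were used. The submitters' processing notes name STAR 2.5, featureCounts 1.5, DESeq2 and the build GRCm38 as tools and genome; annotation and strand setting were not given in the sources used here. In the deposited sample columns each value is a normalised signal per gene; by the values themselves it is the gene's reads over a size factor of its library. The authors also deposited a mean signal, a log2 fold change with its error, a test score and a raw and adjusted p-value. Values were whole multiples of 1 step (100% within 1e-06), so reads were recovered, with size factors of 0.954 to 1.07, and edgeR called 6974 genes on them.

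Values were tested as log2(value + 1) with limma 3.58.1 in R 4.3.3 (group alone, trend and robust), two-sided, for genes at 10 or more in at least 3 of 6 libraries; on this scale changes of low genes are understated. Samples were grouped by title. Alternatives were edgeR 4.0.16, DESeq2 1.42.0, pseudocounts of 0.5 and 10, no filter or one of 100, equal totals, quantile normalisation, limma without trend and robust, the replicate number as a block, and leaving out each library, keeping the same genes. The fits were checked on simulated counts. Members, lists and tests were chosen with earlier results of these data known. Genes named beside the 9 are, per list, up to 4 with the largest called change without overlap, the 3 nearest profiles, and a set chosen by name, of which Plg, Plgrkt, Serpinf2, Lrp1, Anxa2, S100a10, Serpinb6b, Serpinb9b, Mrc2 and Vtn are given and 1 is not reported here. Positions and lengths are from GENCODE M21 (GRCm38), and promoters from RefSeq (GRCm38.p6). Counting intervals and floors cover counting error only.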

Additional observations from a re-analysis of the deposited data

How the results depend on the processing

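Over 16 alternatives Plau and Serpinb6a stayed called toward 4T1. Of the 9 genes, those higher in 4TO7 numbered 1 with all libraries, 0 with a filter of 100, which removed Serpinb2 and Serpinf1, and 2 with equal totals or quantile normalisation, which added Serpinh1. Leaving out each library gave 1 to 2 in 4TO7. Partners higher in 4T1 numbered 3 instead of 5 with equal totals and with quantile normalisation, and 3 to 5 with a library left out. Other serpins higher in 4T1 and 4TO7 numbered 10 and 3 without a filter, and 2 toward 4T1 with a filter of 100. Collagen synthesis genes higher in 4TO7 numbered 8 with quantile normalisation, and those higher in 4T1 numbered 2 to 4 with a library left out. Equal totals moved the median of all genes from 0.03 to -0.10 (log2). Near-zero fold changes turned sign with equal totals, to -0.018 for Plaur, -0.062 for Itpa-ps1, -0.028 for Itpa and -0.10 for Tmem50b. They also turned with edgeR and DESeq2, to -0.030 and -0.0051 for Itpa-ps1 and to -0.043 and -0.020 for Tmem50b. The cause of these shifts was not tested.

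With a library left out, log2 fold changes ran from -0.062 to 0.37 for Plaur. They ran from -0.10 to 0.019 for S100a10, from -0.15 to 0.35 for Itpa-ps1, from -0.13 to 0.37 for Itpa and from -0.13 to 0.26 for Tmem50b. Low reads limit Serpinb2 and Serpinf1, and Serpinf1 also varied widely between 4TO7 libraries.

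Same-numbered libraries of the lines shared deviations at r = -0.01, 0.27 and 0.33 for replicates 1, 2 and 3. 4T1 replicates 2 and 3 correlated best with their own number and 4T1 replicate 1 with 4TO7 replicate 2 (0.11), so not every pair passed 0.1 and the numbers were not taken to pair the samples. With the replicate block 7750 genes were called instead of 6997, and the same 5 of the 9 genes.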
